A study of Mus musculus with 4 samples.

Results

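The miR-30 family is a group of mouse microRNAs (miRNAs) that share the same 5p seed, and the 10 mature members described here (mmu-miR-30a-5p, 30a-3p, 30b-5p, 30b-3p, 30c-5p, 30c-1-3p, 30c-2-3p, 30d-5p, 30d-3p and mmu-miR-30e-5p) were taken by name from the 1907 mature miRNAs listed for small RNA-seq of E14Tg2A cells. All 10 had reads in all 4 libraries. E14Tg2A is an established mouse embryonic stem (ES) cell line, and the labels give the same strain for all 4 libraries. The 5 members of the 5p arm were the abundant ones, and by RPM (reads scaled to a library total of 1000000 miRNA reads) all 5 had their highest level in ES cells kept in 2iL, as had 46.4% of the 302 more abundant miRNAs (those whose log2(RPM + 1) averaged 5 or more). When libraries were scaled by edgeR's trimmed mean of M-values (TMM), 4 of 5 had, and 33.1% of the 302. As a sum they took 3.83% of the miRNA reads there, against 1.59% in ES cells kept in serum.

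The 4 libraries crossed 2 stages with 2 media. "ES serum" cells (0 days in vitro) grew on gelatin with 10% fetal calf serum and leukemia inhibitory factor (LIF, 1000 U/mL), and "ES 2iL" cells (0 days in vitro) had been switched for 3 to 5 passages to a serum-free N2/B27 medium with LIF (1000 U/mL), the MEK inhibitor PD0325901 (1 µM) and the GSK3 inhibitor CHIR99021 (3 µM). "ELA serum" and "ELA 2iL" are epiblast-like aggregates (ELA), harvested after 2 days in vitro as floating aggregates in a chemically defined minimal medium with N2/B27 and without LIF, and their medium names tell which ES cells they came from. Each group had 1 library, made from RNA of 3 pooled sets of experiments, so replicate error cannot be given, and intervals cover counting error only. Culture in 2iL models the ground state of pluripotency, and ELA model the primed, epiblast-like state reached at the ES–ELA transition. The comparisons ask how the levels of miRNAs differ between these states.

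A miRNA is cut as a short duplex from a hairpin precursor, and the strand that is loaded into Argonaute guides the RNA-induced silencing complex (RISC) to mRNAs that pair with its seed, bases 2 to 8. The partner strand is mostly degraded, so the arms of a hairpin are usually found at unequal levels. For the miR-30 hairpins the 5p strand is the usual guide, and miR-30 is known as a widely expressed family of differentiated tissues such as kidney, heart and fat.

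The mature sequences show which members can act on the same sites, and where members differ by so little that reads could be assigned to either. RefSeq (GRCm38.p6) held 6 of the 10 members. The other members, miR-30b-5p, miR-30b-3p, miR-30d-5p and miR-30d-3p, are named only. Bases 2 to 8 are in capitals, and all sequences run 5′ to 3′. The 5p members with a sequence share the seed GUAAACA:
mmu-miR-30a-5p: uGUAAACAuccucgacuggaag
mmu-miR-30e-5p: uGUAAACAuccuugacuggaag
mmu-miR-30c-5p: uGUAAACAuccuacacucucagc
miR-30a-5p and miR-30e-5p were identical at 21 of 22 bases, with the substitution C13U (miR-30a-5p base, position counted from 1 at the 5′ end, miR-30e-5p base). miR-30a-5p and miR-30c-5p were identical at 17 of 22 positions compared, and they differed by C13A, G14C, G18C, G19U and A20C, in the same notation.

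The 3p members with a sequence carry 2 seeds. The passenger strands of the miR-30c hairpins share the seed UGGGAGA, and that of miR-30a carries UUUCAGU:
mmu-miR-30c-1-3p: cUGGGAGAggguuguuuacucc
mmu-miR-30c-2-3p: cUGGGAGAaggcuguuuacucu
mmu-miR-30a-3p: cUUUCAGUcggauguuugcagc
The miR-30c 3p strands were identical at 19 of 22 bases and differed by G9A, U12C and C22U (miR-30c-1-3p base first). These 3 substitutions lie outside the seed, so the miR-30c passenger strands share their seed although they come from separate loci. How the authors treated reads that map to more than 1 miRNA is not given in the sources used here, and the values of miR-30a-5p and miR-30e-5p are uncertain to that extent.

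Of the 1679 mature miRNAs with a sequence in the table, 1 outside the family carried the 5p seed:
mmu-miR-384-5p: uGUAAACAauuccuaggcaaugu
The reads of miR-384-5p numbered 13 (ES) and 18 (ELA) in the serum libraries and 0 (ES) and 1 (ELA) in the 2iL libraries. Its highest level was 4.18 RPM, in ELA serum, which is far below every miR-30 5p member in the same library.

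The family came from 6 hairpins on 3 chromosomes, 2 on each (mm9, GENCODE M1 on NCBIM37). Mir30a (chr1:23279108-23279178, plus strand) and Mir30c-2 (chr1:23298540-23298623, plus strand) lie outside other annotated genes with 19361 bases between them. Mir30e (chr4:120445211-120445302, minus strand) and Mir30c-1 (chr4:120442139-120442227, minus strand) lie 2983 bases apart in introns of Nfyc on the same strand, which encodes a subunit of the transcription factor NF-Y. Mir30b (chr15:68168977-68169072, minus strand) and Mir30d (chr15:68172770-68172851, minus strand) lie 3697 bases apart, outside other annotated genes. miR-30c-5p is cut from both miR-30c hairpins, so its reads on chromosomes 1 and 4 cannot be told apart, whereas the 3p strands can.

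The libraries held between 587363 reads (ELA 2iL) and 8056984 reads (ES serum), and 3 reads, the smallest number taken as detected, equalled between 0.372 RPM (ES serum) and 5.11 RPM (ELA 2iL). The description field of the labels exchanges ES 2iL and ELA serum, while titles, source names and column names are in accord, and the latter were used. The ES cell markers miR-291a-3p, miR-293-3p, miR-294-3p and miR-295-3p were all detected and summed to between 45801 RPM (ELA serum) and 150596 RPM (ES 2iL). The primed-state markers miR-302a-3p, miR-302b-3p, miR-302d-3p and miR-367-3p had their lowest sum, 67.6 RPM, in ES 2iL and their highest, 32895 RPM, in ELA serum. Among lists of other cell types, the sums ranged from 1470 to 4834 RPM for 4 fibroblast miRNAs (highest in ES 2iL, nearly all of it miR-143-3p, with miR-214-3p at most 1.70 RPM), from 471 to 869 RPM for 3 neural miRNAs (highest in ES 2iL, where miR-128-3p was at 570 RPM and miR-9-5p had its lowest level, 156 RPM), from 1.62 to 8.51 RPM for 3 blood miRNAs (miR-142a-3p at 0), from 0 to 73.2 RPM for 2 muscle miRNAs, and miR-122-5p of liver was at 0. The fibroblast and neural sums had their maximum in the same library as the miR-30 5p sum, and their part in the results below was not tested. Because RPM expresses a share of the miRNA reads, fewer cells with a miRNA, less of it per cell and more of other miRNAs cannot be told apart in these bulk libraries.

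The order of the 5p members was the same in every library: miR-30e-5p, miR-30a-5p, miR-30d-5p, miR-30c-5p and then miR-30b-5p. Their neighbours in that order were separated by more than counting error in all 4 libraries. Levels of different miRNAs are compared here per read, and mature strands with a sequence were 22 or 23 bases long.

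miR-30e-5p was at 6193 RPM in ES serum and 7742 RPM in ELA serum, against 15933 RPM in ES 2iL and 13443 RPM in ELA 2iL, so that both 2iL libraries were above both serum libraries. Among all listed miRNAs it ranked 25 (ES) and 22 (ELA) in the serum libraries and 13 (ES) and 12 (ELA) in the 2iL libraries. miR-30a-5p, which differs from it at 1 base, was at 5245 RPM in ES serum and 5522 RPM in ELA serum, against 9730 RPM in ES 2iL and 6356 RPM in ELA 2iL. Its values were closer together, and the ELA 2iL library stood only slightly above the serum libraries. In ES serum miR-30e-5p exceeded miR-30a-5p by 1.18-fold, and in ELA 2iL by 2.12-fold.

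miR-30d-5p, from the chromosome 15 locus, was at 2997 RPM in ES serum and 2676 RPM in ELA serum, against 7397 RPM in ES 2iL and 4832 RPM in ELA 2iL. Its hairpin neighbour miR-30b-5p was the rarest 5p member, with 191 RPM in ES serum and 149 RPM in ELA serum, against 933 RPM in ES 2iL and 409 RPM in ELA 2iL. miR-30c-5p, the product of both miR-30c hairpins, was at 1308 RPM in ES serum and 1059 RPM in ELA serum, against 4293 RPM in ES 2iL and 2273 RPM in ELA 2iL. These 3 members shared an order of libraries, with ES 2iL highest, then ELA 2iL, ES serum and ELA serum. In miR-30e-5p and miR-30a-5p the serum libraries stood the other way round, with ELA serum above ES serum.

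The 3p members were all at or below 216 RPM. miR-30a-3p was at 126 RPM in ES serum and 106 RPM in ELA serum, against 216 RPM in ES 2iL and 98.7 RPM (58 reads) in ELA 2iL. miR-30d-3p was at 81.8 RPM in ES serum and 88.6 RPM in ELA serum, against 198 RPM in ES 2iL and 85.1 RPM (50 reads) in ELA 2iL. Both had a single high library, ES 2iL, and 3 lower ones.

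miR-30c-1-3p was at 88.4 RPM in ES serum and 32.3 RPM in ELA serum, against 136 RPM in ES 2iL and 59.6 RPM (35 reads) in ELA 2iL, and both ES libraries were above both ELA libraries. That order also held for miR-30a-3p, at smaller distances. miR-30c-2-3p was at 28.7 RPM in ES serum and 24.1 RPM in ELA serum, against 30.4 RPM in ES 2iL and 40.9 RPM (24 reads) in ELA 2iL. miR-30b-3p was at 20.2 RPM in ES serum and 21.1 RPM in ELA serum, against 35.8 RPM in ES 2iL and 46.0 RPM (27 reads) in ELA 2iL. These last 2 members were the ones highest in ELA 2iL, on few reads, and in that library neighbouring 3p members could not be ordered beyond counting error.

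**Figure D1:**
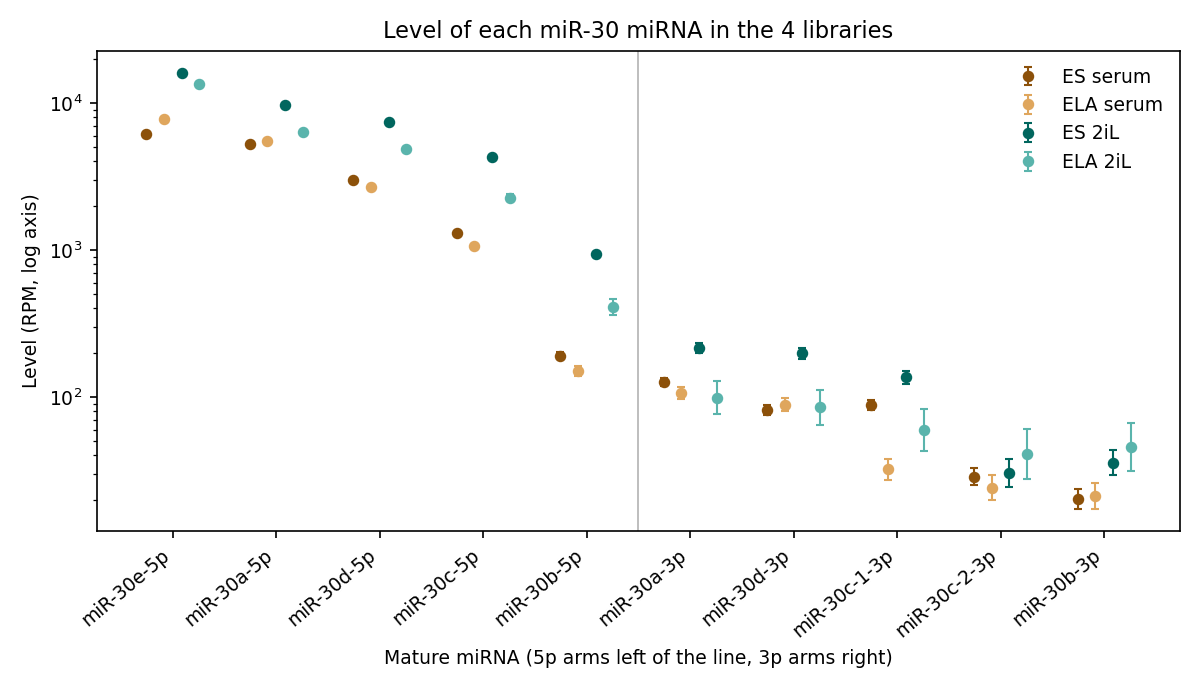
Level of each of the 10 miR-30 miRNAs (RPM, log axis) in the 4 libraries, with points for the level, Wilson 95% counting intervals as bars (smaller than the point where not seen), and 5p members left of the line. The 5p members are highest in ES 2iL, from 933 RPM (miR-30b-5p) to 15933 RPM (miR-30e-5p), and the 3p members stay at or below 216 RPM.

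Differing miRNAs were counted among the 302 whose log2(RPM + 1) averaged 5 or more over the libraries, equal to 31 RPM, where the log2 difference reached 1 in either direction. Of the members 8 were at or above that level. miR-30c-2-3p (mean 4.98) and miR-30b-3p (mean 4.91) were just below it and enter no count by that rule, while the lowest member above it was miR-30c-1-3p (mean 6.14). By RPM, 8 of the 10 members were highest in ES 2iL, and 46.4% of the 302 miRNAs were highest there. All 5 of the 5p members were among the 8. Under TMM scaling 7 members were highest there, 4 of them 5p members, and 33.1% of the 302 miRNAs were.

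In the comparison of media, 2iL minus serum averaged over both stages, all 10 members were higher in 2iL on log2(RPM + 1), though miR-30a-3p was lower under TMM and under DESeq2's size factors, and miR-30c-2-3p by edgeR. Of the 302 miRNAs 197 were higher in 2iL by RPM. The largest difference was that of miR-30b-5p, 1.86 ± 0.48 (SE, 4 libraries), followed by miR-30c-5p with 1.41 ± 0.46 and by miR-30e-5p and miR-30d-5p with 1.08 each (SE 0.46 and 0.45). These 4 guide strands were higher by at least 1, of the 8 members counted, and 23.8% of the 302 miRNAs were. Under TMM scaling 1 of the 8 members was, miR-30b-5p, and 41 of the 302 miRNAs were, a share near that of the members. No member was lower by at least 1, and 13.2% of the 302 miRNAs were.

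The differences did not pass limma on RPM for any member. limma, fitted to 599 miRNAs with stage and medium as terms, gave Benjamini-Hochberg adjusted p-values of 0.114 for miR-30b-5p, 0.143 for miR-30c-5p and 0.192 for both miR-30d-5p and miR-30e-5p. It called 0 of the 599 (0%) for the medium at an adjusted p under 0.05, with 176 at an unadjusted p under 0.05, among them miR-30b-5p and miR-30c-5p. With the recovered reads, edgeR (quasi-likelihood) called 10.7% of the 599 and no member (miR-30b-5p: adjusted p = 0.0691). DESeq2 called 13.4%, with miR-30b-5p the single member among them (adjusted p = 0.0436). With 4 libraries and 1 residual degree of freedom for each miRNA, calls rest on a spread shared across miRNAs. That degree of freedom is how the stage change differs between the media, since each group has 1 library. SEs and p-values are therefore built on that difference and not on error between replicates.

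The remaining members were nearer to the bulk of miRNAs. The median of the medium difference over the 302 miRNAs was 0.42. Relative to that median, miR-30b-5p was 1.44 higher in 2iL, miR-30c-5p 0.99, and miR-30d-5p and miR-30e-5p 0.66 each. miR-30a-5p (0.55 ± 0.46, adjusted p = 0.470 by limma) was 0.13 above the median, miR-30c-2-3p was -0.01 and miR-30a-3p -0.09 from it. On the TMM scale the medium difference of miR-30a-3p was -0.08.

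The same comparison within each stage gave graded differences of the guide strands. Between ES libraries, miR-30b-5p was 4.89-fold higher in 2iL (log2 2.28), miR-30c-5p 3.28-fold (1.71), miR-30e-5p 2.57-fold (1.36), miR-30d-5p 2.47-fold (1.30) and miR-30a-5p 1.86-fold (0.89). With miR-30d-3p (1.26), 5 members were higher by at least 1, and 30.8% of the 302 miRNAs were, while 0 members and 17.5% of the 302 miRNAs were lower by at least 1. Under TMM scaling 2 of the 8 members and 52 of the 302 miRNAs were higher by at least 1, and 0 and 79 were lower. Between ELA libraries the log2 differences were 1.44 for miR-30b-5p, 1.10 for miR-30c-5p, 0.85 for miR-30d-5p, 0.80 for miR-30e-5p and 0.20 for miR-30a-5p. There 2 of the 8 members were higher by at least 1, and 22.2% of the 302 miRNAs were, and 0 members and 8.61% of the 302 were lower.

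Each guide strand thus had a larger medium difference (2iL minus serum) between ES libraries than between ELA libraries, and so had 145 of the 302 miRNAs. miR-30b-5p was first and miR-30c-5p second at both stages, and miR-30a-5p was last. In TMM-scaled values miR-30a-5p was -0.15 in ELA 2iL against ELA serum, so its direction at that stage was not stable. By RPM 8 of the 10 members were higher in 2iL at both stages by any amount, and 52% of the 302 miRNAs were. Under TMM scaling 6 members and 38.4% of the 302 miRNAs were, with miR-30a-5p and miR-30c-2-3p (-0.39 between ES libraries) no longer among them. By RPM the exceptions were miR-30a-3p (-0.11 between ELA libraries) and miR-30d-3p (-0.06), whose counting intervals included 0.

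**Figure D2:**
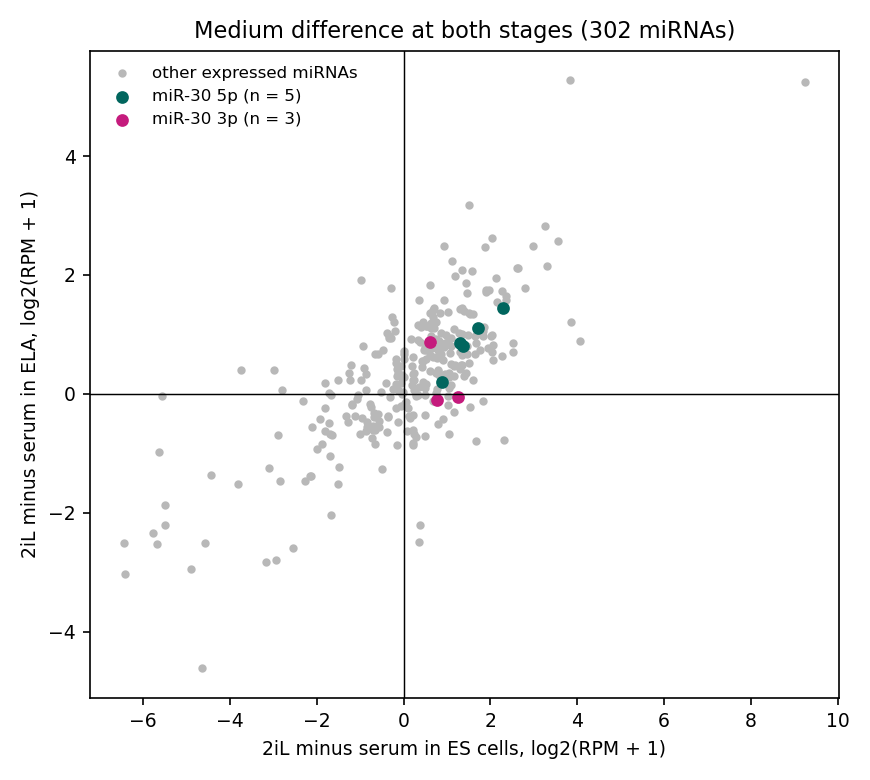
Difference of 2iL minus serum on log2(RPM + 1) between the ES libraries (x axis) and between the ELA libraries (y axis) for the 302 miRNAs averaging 5 or more; green points are the 5 miR-30 5p members, magenta points the 3 miR-30 3p members counted, and grey points other miRNAs. The 5p members lie in the upper right part, along a line from miR-30a-5p (0.89 and 0.20) to miR-30b-5p (2.28 and 1.44), within the cloud of other miRNAs.

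At the ES–ELA transition, ELA minus ES averaged over both media, the members differed less. miR-30c-1-3p was the member with the largest difference, -1.30 ± 0.44 (SE, 4 libraries, adjusted p = 0.202 by limma, unadjusted p = 0.0335). It was the single member of the 8 that was lower by at least 1, and 16.2% of the 302 miRNAs were. None was higher by at least 1, and 11.6% of the 302 miRNAs were. The guide strands ranged from -0.77 ± 0.48 for miR-30b-5p to 0.04 ± 0.46 for miR-30e-5p, with a median of -0.39 over the 5, beside -0.08 over the 302 miRNAs.

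For the stage, limma called 0 of the 599 miRNAs (0%), with 125 at an unadjusted p under 0.05, of which 1 was a member (miR-30c-1-3p). edgeR called 6.51% and DESeq2 8.35% of the 599, no member in either. Of the 10 members 5 were lower in ELA in both media by any amount (miR-30a-3p, miR-30b-5p, miR-30c-5p, miR-30c-1-3p and miR-30d-5p), and 39.1% of the 302 miRNAs were. With size factors 4 members were, without miR-30d-5p, and 31.1% of the 302 miRNAs.

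The transition differed in size between the media. In serum, the guide strands ranged from -0.35 (miR-30b-5p) to 0.32 (miR-30e-5p), and only miR-30c-1-3p passed a log2 difference of 1, at -1.43, with 0 members higher by at least 1 (8.61% and 15.6% of the 302 miRNAs were higher and lower). From 2iL, all 5 guide strands were lower in ELA by RPM, while miR-30e-5p was near 0 under the other scalings: the log2 differences were -1.19 for miR-30b-5p, -0.92 for miR-30c-5p, -0.61 for both miR-30a-5p and miR-30d-5p and -0.25 for miR-30e-5p. There 4 of the 8 members were lower by at least 1 (miR-30a-3p, miR-30b-5p, miR-30c-1-3p and miR-30d-3p), as were 23.5% of the 302 miRNAs, with 0 members and 18.9% of the 302 higher. Under each of the 3 other scalings, 0 members passed 1 in that comparison, while 50 of the 302 miRNAs were lower and 72 or 73 higher by at least 1.

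By RPM, the change from ES to ELA was lower in 2iL than in serum for all 5 guide strands and for 7 of the 10 members, with a median of -0.61 over the guide strands, and for 145 of the 302 miRNAs, with a median of 0.03. The size depends on the scaling. For miR-30d-5p the changes were -0.16 in serum and -0.61 in 2iL by RPM. With library totals that leave out the 5 most abundant miRNAs they were -0.24 and -0.37. The difference between the media was not tested, since it rests on 1 library in each group. The stage and medium comparisons share their libraries, so the ES 2iL value that is high in one is the same value in the other. For each miRNA, the stage change in 2iL minus that in serum also equals its medium difference in ELA minus that in ES. The count for guide strands is thus the same result as their larger medium difference between ES libraries, given above. Without ELA 2iL, the shallowest library, miR-30a-5p (0.07) and miR-30d-3p (0.11) were higher in ELA and miR-30c-2-3p (-0.24) was lower.

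**Figure D3:**
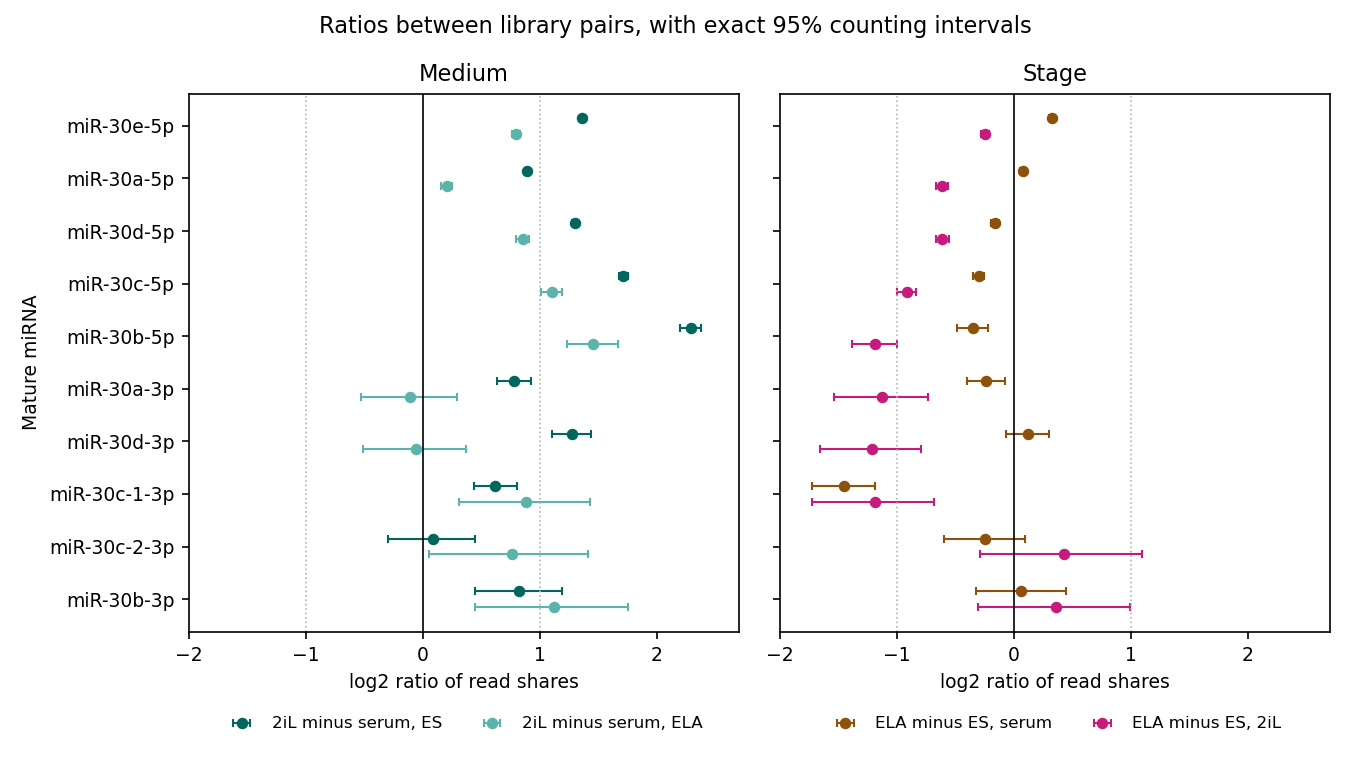
Log2 ratio of read shares for each miR-30 miRNA between library pairs, 2iL minus serum at each stage (left) and ELA minus ES in each medium (right), with exact 95% counting intervals as bars and dotted lines at -1 and 1. By RPM shares, guide strands (the upper 5 rows) lie right of 0 in both medium comparisons, from 0.20 to 2.29, and left of 0 for ELA minus ES in 2iL, from -1.19 to -0.25.

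Members with the same seed act on the same sites, so their sum is given as well. The 5 guide strands held 1.59% of all miRNA reads in ES serum (Wilson 95% interval 1.58 to 1.60) and 1.71% in ELA serum (1.70 to 1.73), against 3.83% in ES 2iL (3.81 to 3.85), with 2.73% in ELA 2iL (2.69 to 2.77). The sum was thus 2.40-fold higher in 2iL between ES libraries and 1.59-fold between ELA libraries. Between stages it was 1.08-fold higher in ELA in serum and 1.40-fold lower in ELA in 2iL. The 5 passenger strands together held 0.0345% in ES serum and 0.0272% in ELA serum, against 0.0615% in ES 2iL and 0.0330% in ELA 2iL.

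These sizes depend on what the libraries are scaled to. On the log2 scale the medium difference of the summed guide strands between ES libraries was 1.26 by RPM and 0.77 by TMM, and between ELA libraries 0.67 and 0.32. The median of all 302 miRNAs moved by a similar amount, from 0.42 by RPM to 0.0039 by TMM for the medium averaged over both stages, and the miRNAs past a difference of 1 went from 72 higher and 40 lower to 41 higher and 61 lower. The same change of scaling took this split from 35 higher and 49 lower to 50 and 35 for the stage, from 57 and 71 to 73 and 50 for the stage in 2iL, from 93 and 53 to 52 and 79 for the medium in ES, and from 67 and 26 to 42 and 44 for the medium in ELA. For the stage in serum, size factors took it from 26 and 47 to 35 and 36.

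The make-up of the guide pool also differed between libraries, and a share within the pool does not depend on the library total. miR-30e-5p made up 38.9% of the guide reads in ES serum and 45.1% in ELA serum, against 41.6% in ES 2iL and 49.2% in ELA 2iL. miR-30a-5p made up 32.9% and 32.2% of the guide reads in these serum libraries and 25.4% and 23.3% in the 2iL libraries. The miR-30a-5p share was thus lower in both 2iL libraries than in both serum libraries, and the miR-30e-5p share was higher in each ELA library than in either ES library, beyond the Wilson 95% intervals.

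miR-30b-5p made up 1.20% of the guide reads in ES serum, 0.871% in ELA serum, 2.44% in ES 2iL and between 1.32% and 1.70% (Wilson 95% interval) in ELA 2iL. In the same order miR-30c-5p made up 8.21%, 6.18%, 11.2% and 8.32%, and miR-30d-5p 18.8%, 15.6%, 19.3% and 17.7%. miR-30b-5p was therefore higher as a share in the 2iL library of each stage, and so were miR-30c-5p and miR-30d-5p, though miR-30d-5p by little.

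**Figure D4:**
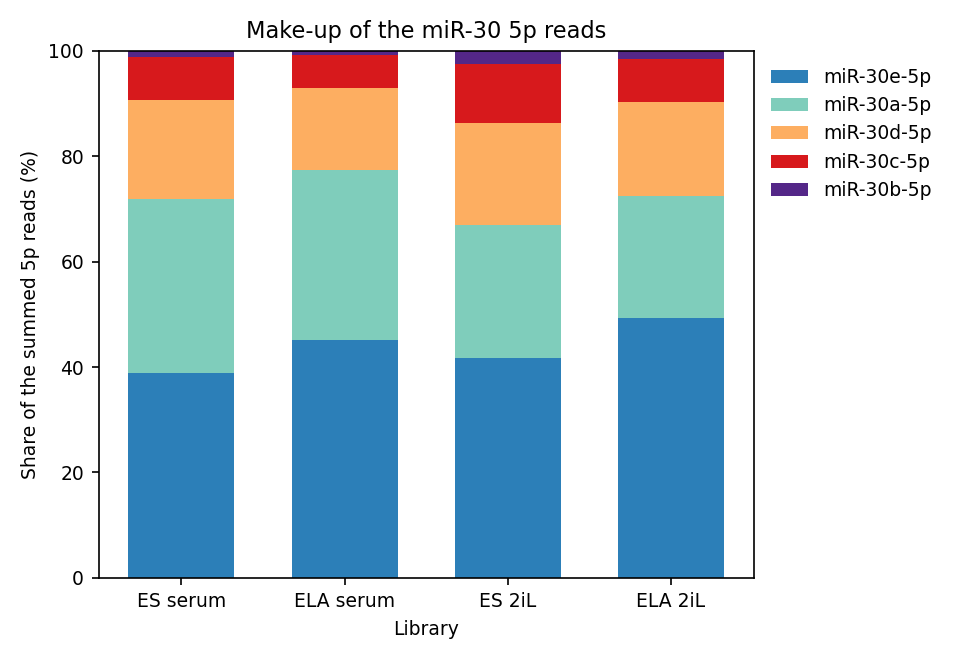
Share of the summed miR-30 5p reads (percent, y axis) taken by each of the 5 guide strands in the 4 libraries (x axis), stacked to 100. miR-30a-5p takes 32.9% and 32.2% in the serum libraries and 25.4% and 23.3% in the 2iL libraries, and miR-30e-5p takes the most in every library.

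The ratio of the arms of a hairpin is also free of the library total. For miR-30a there were 41.8 5p reads for each 3p read in ES serum (exact 95% interval 39.2 to 44.5) and 52.0 in ELA serum (47.4 to 57.1), against 45.1 in ES 2iL (41.6 to 49.0), with 64.4 in ELA 2iL (49.7 to 84.9). For miR-30d the ratio was 36.6 in ES serum and 30.2 in ELA serum, against 37.4 in ES 2iL and 56.8 in ELA 2iL (42.9 to 76.7). Between ES libraries the intervals of each ratio overlapped, while the levels of the arms differed by 1.72-fold (miR-30a-3p) to 2.47-fold (miR-30d-5p). In other library pairs some ratios parted: the miR-30d ratio was higher in ELA 2iL than in ELA serum (27.3 to 33.5) with intervals that did not overlap. Between these ELA libraries the miR-30a intervals overlapped. The miR-30a ratio was higher in ELA serum than in ES serum, with intervals that did not overlap. Between these same serum libraries the miR-30d ratio was lower in ELA than in ES (33.9 to 39.6), again with intervals that did not overlap.

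For miR-30b and miR-30c the ratio differed between the ES libraries beyond counting error, whereas between the ELA libraries the intervals overlapped. For miR-30b there were 9.44 5p reads for each 3p read in ES serum (8.02 to 11.2) and 7.08 in ELA serum (5.67 to 8.91), against 26.1 in ES 2iL (21.3 to 32.2), with 8.89 in ELA 2iL (5.96 to 13.8). ES 2iL stood apart from the other 3 libraries: miR-30b-3p was 1.77-fold higher there than in ES serum, and miR-30b-5p 4.89-fold. For miR-30c, set against the sum of both 3p strands, the ratio was 11.2 in ES serum and 18.8 in ELA serum (16.5 to 21.5), against 25.8 in ES 2iL (23.5 to 28.4), with 22.6 in ELA 2iL (17.4 to 29.9). ES serum was the low library.

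The 3p strands of miR-30c separate the hairpins of chromosomes 4 and 1. There were 3.08 miR-30c-1-3p reads for each miR-30c-2-3p read in ES serum (2.65 to 3.59) and 4.48 in ES 2iL (3.52 to 5.74), but 1.34 in ELA serum (1.03 to 1.74), with 1.46 in ELA 2iL (0.843 to 2.56). Both ES libraries were above both ELA libraries, with intervals that did not overlap. The strand that carried this difference was miR-30c-1-3p, from the intron of Nfyc that lies near Mir30e, and miR-30e-5p from that locus differed from it, with 1.25-fold more in ELA in serum and 0.844-fold in 2iL.

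**Figure D5:**
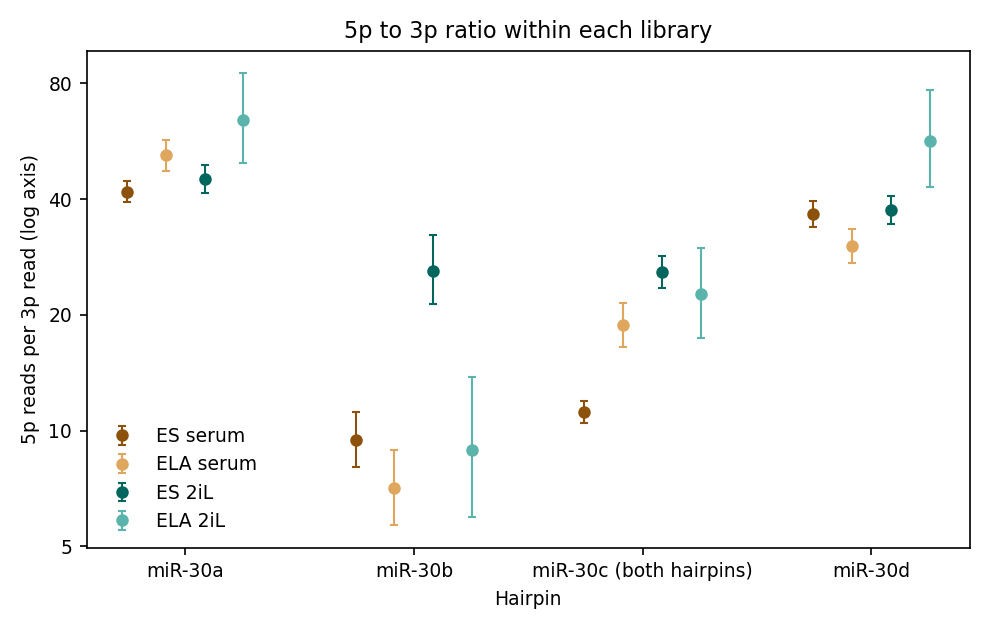
Number of 5p reads for each 3p read (log axis) of the miR-30a, miR-30b, miR-30c and miR-30d hairpins in the 4 libraries, with exact 95% counting intervals as bars. The miR-30b ratio is 26.1 in ES 2iL and between 7.08 and 9.44 in the other libraries, while the miR-30a and miR-30d ratios are 30.2 or more throughout.

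miR-30e-3p, the partner strand of the most abundant guide, is not among the members: it was listed at 0 in all 4 libraries. Its sequence and that of miR-30f, which RefSeq places on the opposite strand of the same hairpin, are shown because they overlap by 19 bases:
mmu-miR-30e-3p: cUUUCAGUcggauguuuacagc
mmu-miR-30f: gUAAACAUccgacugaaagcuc
miR-30f held 6.21 RPM in ES serum and 4.18 RPM in ELA serum, against 2.53 RPM in ES 2iL and 0 RPM in ELA 2iL. Of mature miRNAs that overlap another on the opposite strand by 15 bases or more, 39 of 51 (76.5%) were listed at 0 in all libraries, against 548 of 1517 (36.1%) without an overlap. How reads in overlapping miRNAs were handled is not given in the sources used here, and its part in the value of miR-30e-3p was not tested.

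Against other families with a shared seed and several loci, the guide strands of miR-30 took a middle place in the medium comparison. The median 2iL minus serum difference on log2(RPM + 1) was 1.08 for the 5 miR-30 guide strands, 2.42 for the 9 guide strands of let-7 (8 of 9 higher in 2iL), a family that accompanies differentiation and is held low in ES cells, 1.26 for both miR-26 guide strands and 0.25 for the 3 of miR-29. For ELA minus ES the medians were -0.39 for miR-30, -0.85 for let-7, -0.44 for miR-26 and 0.25 for miR-29. All 5 miR-30 and both miR-26 guide strands averaged 5 or more, but only 5 of 9 of let-7 and 1 of 3 of miR-29 did. That 1, miR-29a-3p, differed by 0.48 between ES libraries and -0.71 between ELA libraries for 2iL minus serum. The let-7 and miR-29 medians thus include low miRNAs, whose differences this scale understates. In summed level the miR-30 guide strands were far above let-7 in every library, with let-7 between 249 and 2616 RPM. The differences between families were not tested.

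The miRNAs whose pattern over the 4 libraries was most like that of the summed guide strands, by Euclidean distance between mean-centred log2(RPM + 1) values, were miR-324-5p (distance 0.221), miR-15b-3p (0.241), miR-708-5p (0.304), miR-26b-5p (0.308) and miR-425-5p (0.334). The median distance of the other miRNAs was 1.28, and 4 libraries give few points to tell patterns apart. miR-26b-5p, for example, was at 735 RPM in ES serum and 718 RPM in ELA serum, against 1864 RPM in ES 2iL and 1004 RPM in ELA 2iL. Among the members, miR-30d-5p (0.238) and miR-30e-5p (0.255) were the nearest to the sum of which they are a part, and miR-30c-1-3p (1.21) and miR-30b-5p (1.07) were the farthest of the 8 counted.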

How the data were processed

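Total RNA was extracted with miRNeasy columns, and 1 µg per library was prepared with the TruSeq Small RNA kit and sequenced in 50-base single reads. The authors demultiplexed reads with CASAVA 1.8, trimmed adaptors with Trimmomatic, mapped with Bowtie to mm9, counted them with featureCounts on the mature miRNAs of miRBase release 20, and deposited the result as RPM, which sums to 1000000 in each library. Versions other than that of CASAVA, mismatches allowed and the treatment of multiply mapped reads are not given in the sources used here. The 4 library columns were all used, and 0 columns stayed unused. The authors' own differential expression was run with edgeR and is not used here.

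Values above 0 were whole multiples of the value of 1 read within a tolerance of 0.01 (100% in each library), which returned the read numbers. The depth ranged from 587363 to 8056984 reads. Wilson intervals for shares and exact (Clopper-Pearson) intervals for ratios, all at 95%, and the floor of 3 reads cover counting error only, since reads carry no molecular identifiers.

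As the values are RPM, limma 3.58.1 (R 4.3.3) was fitted to log2(RPM + 1), a scale that understates differences of low miRNAs, as an additive model of stage and medium over the 4 libraries. A miRNA was tested if 10 or more reads were found in 2 or more libraries, which left 599 (two-sided, Benjamini-Hochberg, threshold 0.05, 3.79 prior degrees of freedom). edgeR 4.0.16 and DESeq2 1.42.0 on the recovered reads, other scalings and pseudocounts (0.5 and 5 RPM) and no filter were alternatives. The fits were also run on simulated reads with a stage difference only and steady library totals. That run cannot test the medium comparison or the scaling, and no conclusion is drawn from it. Groups follow titles and column names. The level of 5 and the difference of 1 follow the study's limits. Members, comparison families, marker lists and the rule for miRNAs of like pattern (the 5 nearest outside the family) were chosen with earlier results of these data known, and all members are named.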

Additional observations from a re-analysis of the deposited data

Results flagged for a closer look

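Both of the most abundant guide strands had an ES to ELA difference of opposite sign in the 2 media. Of the 302 miRNAs, 151 were higher in ELA in serum and 170 were lower in ELA in 2iL by RPM, while 118 were lower in both media. miR-30a-5p was 0.07 higher in ELA in serum and -0.61 in 2iL on log2(RPM + 1), a difference between the media of -0.69. For miR-30e-5p the values were 0.32 (serum) and -0.25 (2iL), which differ by -0.57. All 4 counting intervals excluded 0, but with 1 library in each group the difference between the media was not tested. For miR-30e-5p the opposite sign depends on the scaling, since its value in 2iL was 0.0033 under TMM. For miR-30a-5p the signs stayed opposite under TMM and size factors, with serum values of 0.18 and 0.27. With library totals that leave out the 5 most abundant miRNAs its serum value was near 0 (0.0023), so its opposite sign depends on the scaling as well. Leaving out miR-30a-5p and miR-30e-5p, the other guide strands (miR-30b-5p, miR-30c-5p and miR-30d-5p) were lower in ELA in both media by RPM.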

How the results depend on the processing

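On TMM factors, DESeq2 size factors and totals without the 5 most abundant miRNAs, in that order, the summed guide strands differed (log2) by 0.77, 0.87 and 0.99 for 2iL minus serum in ES (RPM 1.26), by 0.32, 0.31 and 0.71 in ELA (RPM 0.67), by 0.21, 0.30 and 0.034 for ELA minus ES in serum (RPM 0.11) and by -0.24, -0.26 and -0.24 in 2iL (RPM -0.49). Members higher in 2iL by at least 1 on average numbered 4 by RPM, 1 by TMM, 2 by size factors and 2 by the reduced totals, beside 72, 41, 46 and 62 of the 302 miRNAs, and 1 by edgeR and 2 by DESeq2. Members of all 10 past 1 in size were 4 by RPM and 0 under each of the 3 scalings for ELA minus ES in 2iL, 5 by RPM and 2 by TMM and by size factors for the medium in ES, and 3 by RPM and 1 by TMM and by size factors for the medium in ELA. Of the 302 miRNAs, 128 by RPM and 122 or 123 under the 3 scalings passed 1 in the first comparison, 146 by RPM and 131 by TMM and by size factors in the second, and 93 by RPM and 86 by TMM and by size factors in the third. 1 member passed an adjusted p of 0.05 for the medium under the reduced totals, with no filter and by DESeq2, against 0 by limma on RPM: miR-30b-5p, with adjusted p-values of 0.0315, 0.0165 and 0.0436. Without ELA 2iL, the stage difference turned to 0.074 for miR-30a-5p, -0.24 for miR-30c-2-3p and 0.11 for miR-30d-3p, on fewer libraries and with no test. The medium difference of miR-30a-3p turned to -0.082 (TMM), -0.042 (size factors), -0.074 (edgeR) and -0.031 (DESeq2), and that of miR-30c-2-3p to -0.019 (edgeR). Between pairs of libraries, miR-30d-5p turned to 0.032 for the stage in serum (size factors), miR-30e-5p to 0.0033 (TMM) and 0.0023 (reduced totals) for the stage in 2iL, miR-30a-5p to -0.15 (TMM) and -0.16 (size factors) for the medium in ELA, miR-30c-2-3p from 0.080 to -0.39 (TMM), -0.30 (size factors) and -0.19 (reduced totals) for the medium in ES, and miR-30b-3p from 0.059 to -0.0099 (reduced totals) for the stage in serum. Adding 1 read to each arm moved none of the 16 arm ratios beyond its counting interval, and pseudocounts of 0.5 and 5 RPM turned no direction. The number of all miRNAs called was less stable: for stage and medium, limma called 0 and 0 of 599 by RPM and by size factors, 45 and 73 by TMM, 89 and 109 by the reduced totals, 9 and 38 with a pseudocount of 5, and 99 and 130 of 1202 with no filter, while edgeR called 39 and 64 and DESeq2 50 and 80. The ELA 2iL depth limits the 3p members to between 24 and 58 reads there. Each group has 1 library, and the labels give no replicate numbers to serve as a block. The medium of the ES cells was the only pairing available, and the model with stage and medium as terms compares the stages within each medium.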
